A study of Mus musculus with 33 samples.

Results

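Nuclear hormone receptors are transcription factors that small lipid-soluble ligands or, for some members, no known ligand switch between repression and activation, and coregulators are the proteins they recruit to do so. The genes described here are 9 of the 32285 genes in the deposited matrices, chosen by name: the coregulators Nrip1 and Ncoa3, the glucocorticoid receptor Nr3c1, the estrogen-related receptor Esrra, the shared heterodimer partner Rxra, its partners Pparg, Nr1h3 and Vdr, and the immediate early receptor Nr4a1. In macrophages, PPARG, LXR alpha (the product of Nr1h3) and the vitamin D receptor bind DNA together with an RXR and respond to fatty acids, oxysterols and vitamin D, while Nr4a1 is switched on within a short time of stimulation and is known for the survival of patrolling monocytes.

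The data were single-cell RNA counts from mouse tissues in which a niche-labelling system named SAMENT had marked cells with biotin during an overnight exposure to its substrate, after which biotin-positive and biotin-negative cells were sorted apart. Bone (femurs and tibias), brain, liver and lung were taken after intracardiac injection, giving 8 groups of tissue and sort with 4 samples each, 32 samples in all. A further pool of bone after IIA injection, as the labels name it, held 12 hashtagged samples, 6 biotin negative and 6 biotin positive, with injections numbered 1 to 6 in each sort. The strain, age and tumour line are not in the labels used here, all tissues were dissociated with collagenase, and no uninjected or unlabelled group was part of the samples analysed. The sorts differ in labelling, so every comparison below is between cells that did and did not carry biotin in the same tissue, between tissues within the negative sort, or, in 1 test, of the biotin contrast itself between tissues.

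After filtering, 55366 of 57065 intracardiac cells and 22362 of 22685 hashtag-assigned IIA cells were kept. Samples held 94 to 3505 intracardiac and 249 to 3480 IIA cells, with median depths per cell of 2606 to 11313.5 and 2532 to 10766 UMIs, that is, molecules counted by their unique tags. Levels are given as CPM, the UMIs of a gene scaled to a common total of UMIs over all genes, after the cells of a class in a sample were summed. Cells were clustered and the clusters named from marker genes, so every class name below means cells resembling that type, and differences from the study may come from these rebuilt names. The intracardiac libraries read transcripts from their 3′ end and the IIA libraries from their 5′ end, so levels were not compared between the experiments, nor between genes. The p-values are from edgeR's quasi-likelihood test, adjusted over all genes tested by the Benjamini-Hochberg method, and a gene is called where the adjusted p is under 0.05. Differences are log2 fold changes of biotin-positive over biotin-negative samples with their standard error. They use size factors by the TMM method, which the CPM do not, so they can differ from ratios of the printed CPM.

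In the GRCm38 mouse assembly, with GENCODE vM21 genes, Nrip1 lies at chr16:76287400-76373827 on the minus strand, Ncoa3 at chr2:165992636-166073242 on the plus strand and Esrra at chr19:6910977-6921813 on the minus strand (the position of Nr3c1 is left out here). Rxra lies at chr2:27676440-27762957 on the plus strand, Pparg at chr6:115360951-115490399 on the plus strand, Nr1h3 at chr2:91184061-91202834 on the minus strand, Vdr at chr15:97854425-97910630 on the minus strand and Nr4a1 at chr15:101254269-101274795 on the plus strand. Exons of Ncoa3 share 154 bases with Sulf2 on the opposite strand and those of Esrra share 73 bases with Trmt112 on the opposite strand. On the same strand, exons of Esrra share 91 bases with Mir6990 and those of Nr1h3 34 bases with Gm13783. Whether strand was used in counting is not given in the sources used here, and reads in those stretches cannot be assigned with certainty.

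The sequences just before the start sites of 3 members are shown: those of Nr4a1 and Rxra because they alone among the matched members' sequences hold any of the 3 motifs searched, and that of Nr1h3 as a contrast. RefSeq promoter entries on GRCm38 matched 7 members, each holding up to 250 bases before a start site, and the capitals mark matches on either strand of TGACG, the core of the element bound by CREB and ATF factors, or of AGGTCA, the core element of many nuclear receptors. The Nr4a1 sequence, chr15:101266596-101266845 on the plus strand, holds 4 matches of TGACG, all read as CGTCA:
Nr4a1: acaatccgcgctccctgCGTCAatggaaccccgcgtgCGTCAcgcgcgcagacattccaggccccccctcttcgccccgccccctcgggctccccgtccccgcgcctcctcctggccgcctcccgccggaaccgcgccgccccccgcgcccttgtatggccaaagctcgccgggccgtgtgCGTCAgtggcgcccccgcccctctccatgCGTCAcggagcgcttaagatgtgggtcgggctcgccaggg
At least 1 match of TGACG was found in 17.8% of the 32851 promoters in the table and at least 4 in 0.137%. The sequence before the second annotated start of Rxra, chr2:27709042-27709291 on the plus strand, holds AGGTCA on each strand, while that before the first, chr2:27676951-27677200, holds neither motif:
Rxra: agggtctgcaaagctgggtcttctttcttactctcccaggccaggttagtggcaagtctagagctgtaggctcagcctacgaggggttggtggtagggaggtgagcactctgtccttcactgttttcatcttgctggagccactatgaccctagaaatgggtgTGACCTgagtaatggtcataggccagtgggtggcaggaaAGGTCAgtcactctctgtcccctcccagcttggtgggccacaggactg
At least 1 AGGTCA was found in 14.0% of promoters and at least 2 in 1.36%. The Nr1h3 sequence, chr2:91195152-91195366 on the minus strand, holds neither AGGTCA nor TGACG, nor AGAACA, the core of the glucocorticoid receptor element, which was found in 16.1% of promoters:
Nr1h3: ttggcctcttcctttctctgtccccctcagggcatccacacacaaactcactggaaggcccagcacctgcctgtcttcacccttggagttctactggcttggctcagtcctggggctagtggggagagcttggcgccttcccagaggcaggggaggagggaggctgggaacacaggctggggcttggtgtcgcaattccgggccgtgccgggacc
The promoter sequences of Pparg, Vdr, Nrip1 and Esrra, which are not shown, hold none of the 3 motifs either. A match describes letters and is not evidence of a bound site, and the absence of these letters in so short a window says nothing about the factors.

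Across the intracardiac cell classes Ncoa3 and Nr3c1 were measured in most, while Pparg, Nr1h3 and Vdr had their highest medians in alveolar macrophages. Nrip1, a corepressor known for its part in lipid metabolism and in inflammatory transcription of macrophages, had a median of 338 CPM in microglia (range 293 to 388, 5 samples) and 265 in alveolar macrophages (197 to 291, 6 samples). It was at 126 in T cells (29 samples) and 84.0 in other macrophages, whose 30 samples ranged from 40.8 to 321, and at 0.983 in neutrophils (32 samples). The first 2 classes do not overlap, while macrophages reached from below the median of T cells into the range of microglia. Ncoa3, a histone acetyltransferase coactivator of the p160 family, ran from 88.0 in microglia (60.9 to 104) and 74.0 in endothelial cells through 61.7 in B cells, 51.4 in macrophages, 41.2 in monocytes and 32.6 in neutrophils to 17.5 in immature neutrophils, 12.9 in plasma cells and 9.54 in granulocyte precursors.

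Nr3c1 was measured in every class, with medians of 165 CPM in endothelial cells (22.5 to 333, 12 samples), 149 in microglia (113 to 198), 105 in both neutrophils and T cells, 87.3 in macrophages and 57.4 in monocytes. The ranges of endothelial cells and microglia overlap, so their order is not resolved. Esrra, a regulator of mitochondrial energy genes, reached 37.6 in alveolar macrophages (29.1 to 47.7) and was 26.8 in microglia, 26.3 in macrophages and 22.2 in neutrophils. Rxra was at 62.4 in alveolar macrophages (33.2 to 75.2), 61.5 in the 1 sample with epithelial or tumour cells, 33.3 in microglia, 31.2 in endothelial cells (10.4 to 61.2) and 26.8 in other macrophages (0 to 165), against 11.5 in monocytes, 3.68 in neutrophils and 1.3 in B cells.

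Pparg, the receptor required for alveolar macrophages to mature, had a median of 125 CPM in that class (54.0 to 162, 6 samples), 7.68 in other macrophages (0 to 45.7) and 4.53 in monocytes (0 to 56.4). In microglia no Pparg UMI was seen among 2423167 UMIs, which allows up to 1.24 CPM. Nr1h3, which drives cholesterol export, had medians of 43.1 in alveolar macrophages (5.54 to 60.4) and 29.2 in other macrophages, whose samples ran from 2.84 to 567.8, so these classes overlap. Vdr was at 36.3 in alveolar macrophages (11.1 to 78), 7.80 in conventional dendritic cells (25 samples) and 7.25 in macrophages, with a median of 0 in most other classes. These levels are a description of the classes, and 4 of the 6 alveolar samples came from the biotin-positive lung.

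Nr4a1 had its highest median in monocytes, 606 CPM with a range of 69.5 to 1284, followed by alveolar macrophages at 322, neutrophils at 293 (63.5 to 673), macrophages at 263, conventional dendritic cells at 214 and B cells at 196. The ranges of these classes overlap widely. Immature neutrophils were at 116 and granulocyte precursors at 15.6.

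**Figure D1:**
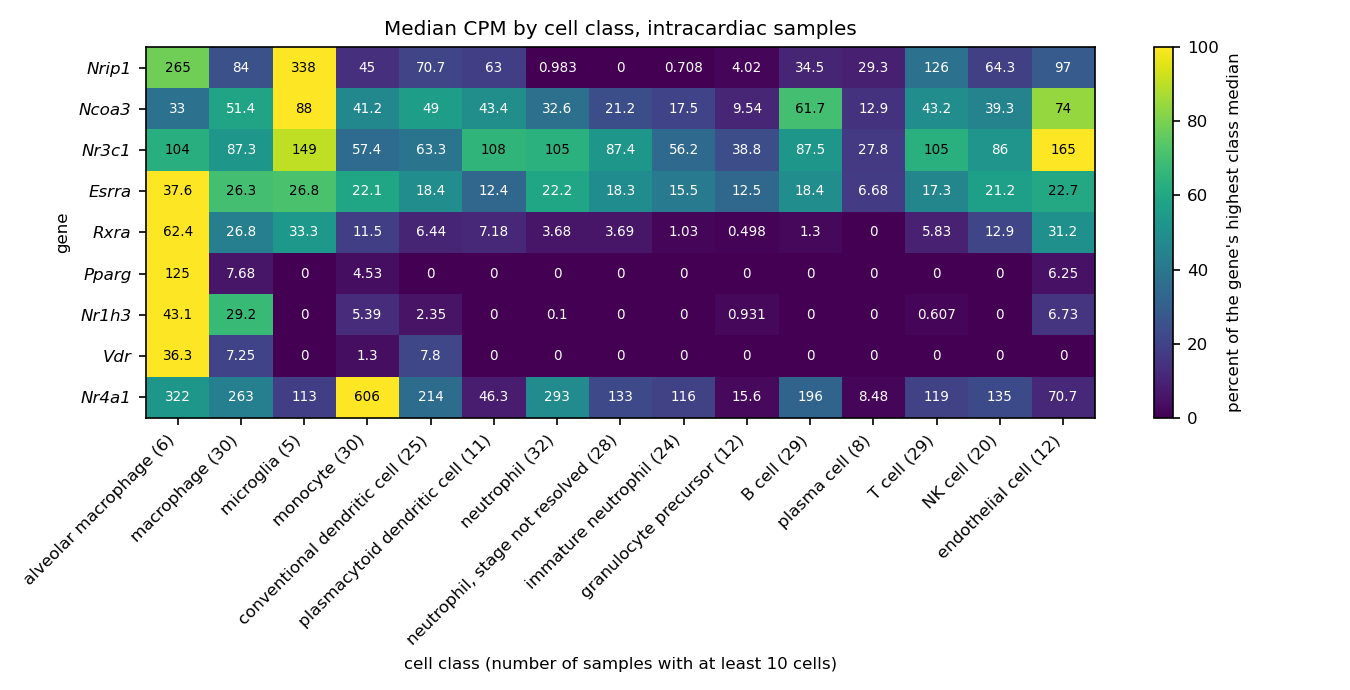
Median CPM of each member (rows) in each intracardiac cell class (columns, with the number of samples), coloured as a percentage of that gene's highest class median. Pparg and Vdr peak in alveolar macrophages, at 125 and 36.3 CPM, Nrip1 and Ncoa3 in microglia, and Nr4a1 in monocytes at 606 CPM.

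Within the macrophages and monocytes, the members differed from cluster to cluster. In the liver, a cluster of 1010 cells led by Cd5l, Clec4f and Vsig4, genes of Kupffer cells, had a median Nr1h3 level of 599 CPM. Its 5 samples ranged from 338 to 825, and both sorts were represented, with 338, 599 and 766 in biotin-positive and 451 and 825 in biotin-negative samples. The same cluster held the highest Rxra among the macrophage clusters, with a median of 147 (106 to 173), and Nrip1 at 337. A cluster led by Vcam1, Ccr3 and Itgad, found in several tissues, had 513 cells in the biotin-positive bone and held Nr1h3 at 122, 286, 135 and 43.3 CPM in the 4 samples there and Pparg at 111, 89.7, 16.9 and 43.3.

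The cluster led by Plet1, Ear1 and Atp6v0d2 (3730 cells, 6 samples) carried most of the alveolar values, with medians of 124 CPM for Pparg, 38.8 for Vdr and 272 for Nrip1. A brain cluster led by Ccl12, Ptgds and Ccn1 (833 cells, 7 samples) had Nr3c1 at 166 (108 to 254) and Rxra at 42.5, but Nr1h3 at 1.70. Monocytes led by Ace, Adgre4 and Cd300e, the patrolling type, held Nr4a1 at a median of 770 (308 to 1434) and Pparg at 34.7 (11.1 to 215), while those led by Saa3 held Nr4a1 at 529 and those led by Vcan, Ccr2 and S100a4 (2302 cells, 12 samples) at 198, with a median Pparg level of 0 in both. Clusters were found without using the members, which were kept out of the variable genes.

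**Figure D2:**
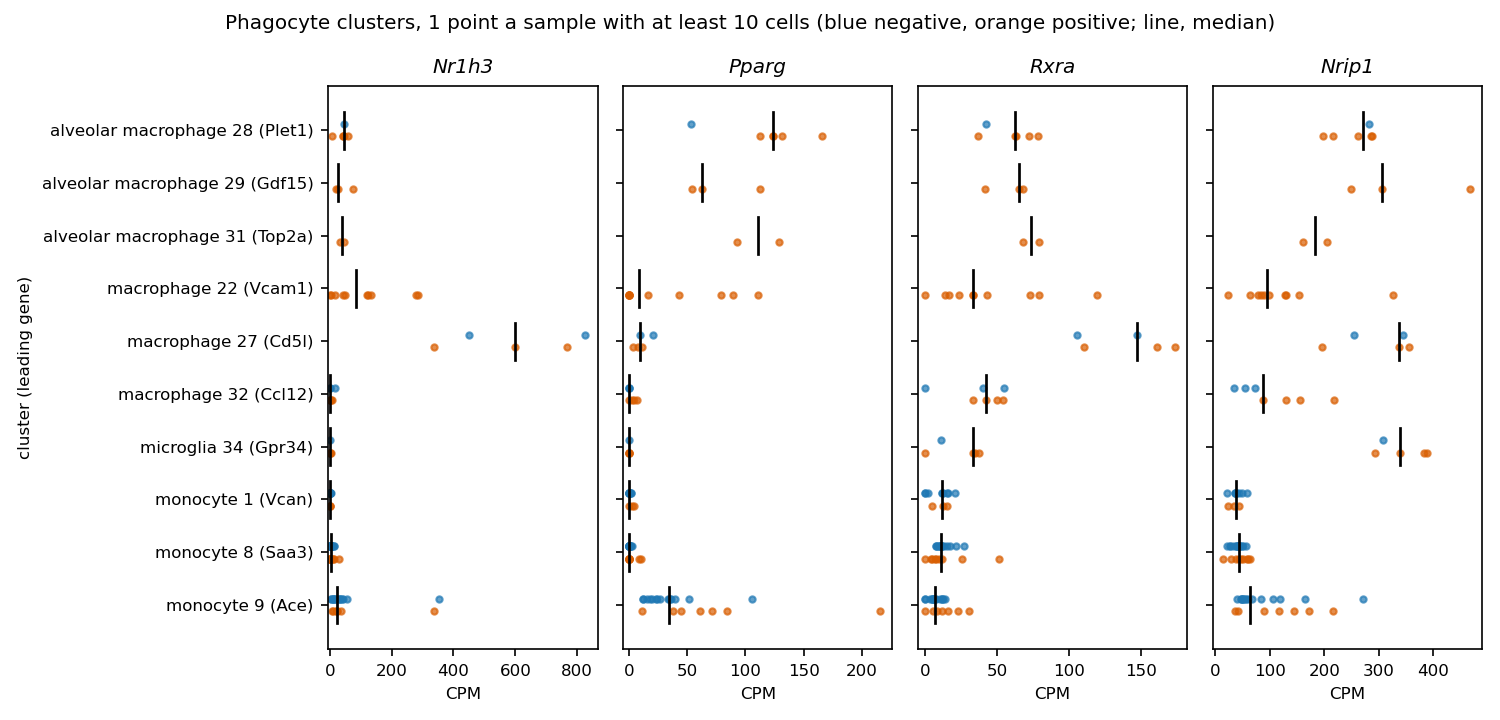
CPM of members in macrophage, microglia and monocyte clusters of the intracardiac samples, 1 point for each sample with at least 10 cells, blue for biotin negative and orange for biotin positive, with a line at the median. Nr1h3 stands at 338 to 825 CPM in the liver cluster led by Cd5l, and Pparg at 53.1 to 166 in the lung cluster led by Plet1.

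The first comparison set all biotin-positive against all biotin-negative cells of a tissue. In the lung, 4 of the 9 members were higher in the positive sort, where 11.4% of all genes tested were called higher. Pparg was at 2.68, 3.06, 2.5 and 1.19 CPM in the negative samples and 68.2, 89.9, 72.8 and 26.8 in the positive ones, a log2 difference of 4.51 (SE 0.43, adjusted p = 0.00126). Nr1h3 was at 3.02, 8.92, 3.75 and 1.71 against 26.1, 39.9, 29.7 and 17.7 (2.39, SE 0.52, adjusted p = 0.0171). Rxra was at 5.36, 10.3, 9.39 and 5.54 against 36.8, 63.2, 30.7 and 24.5 (2.05, SE 0.33, adjusted p = 0.0056). None of these sorts overlap. Vdr was at 3.11, 5.01, 3.02 and 3.82 against 34.2, 64.6, 11.3 and 8.17 (2.63, SE 0.60, adjusted p = 0.0198), and this call was lost without negative replicate 1 (adjusted p = 0.0556) or 4 (0.0508). Nr4a1 (-0.90, adjusted p = 0.0547), Nrip1 (0.92, 0.076), Ncoa3 (-0.32, 0.235), Esrra (0.42, 0.328) and Nr3c1 (-0.10, 0.652) were not called. In sums over all cells, a change in the number of cells of a type and a change of RNA per cell cannot be told apart.

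In the other tissues no member was called over all cells. In bone and in liver 0.0% of genes passed edgeR's test, although 977 and 1569 genes, 1 and 2 members among them, were under an unadjusted p of 0.05. DESeq2 found 53 and 431 genes in these tissues, no member among them. In brain 2.90% of genes were called. Rxra there differed by 1.36 with an adjusted p of 0.115, which was 0.0328 (log2 difference 1.34) with the replicate number as a block and 0.0381 with DESeq2. Of 11064 genes, 725 were called with the block and 1225 with DESeq2. In the liver, Nr1h3 was at 19.8, 506, 71.0 and 0 CPM in the positive samples and 2.47, 11.0, 28.5 and 1.57 in the negative ones, a spread that the test did not resolve.

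Whether the biotin contrast itself differed between tissues was tested in a fit of all 32 samples. The contrast of Pparg in the lung exceeded the mean of the other tissues by 3.29 on the log2 scale (SE 0.85, adjusted p = 0.0349), where 1.88% of genes were called higher, and it was the only member called in this test. For brain 0.258% of genes were called, and for bone and liver 0.0% by edgeR, no member among them. In bone, Pparg was at 6.27, 12.6, 0.21 and 0.51 CPM in the positive samples against 1.61, 1.08, 0.72 and 0.20 in the negative ones, so that its spread in bone was wide. The lung call was lost on leaving out any of 8 of the 32 samples, with an adjusted p of up to 0.107: lung positive replicates 1, 2 and 3, lung negative replicates 1, 3 and 4, bone negative replicate 2 and liver negative replicate 3. Of 13 tested genes of a PPARG lipid target list, 3 differed in the same direction: Fabp1 (6.27), Plin2 (1.46) and Cpt1a (1.42). Fabp1 was also among the markers used to name alveolar macrophages.

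The same contrast was then made within phagocytes, the macrophage, microglia, monocyte and alveolar macrophage clusters pooled. In the lung 6 members were higher and 1 lower in the biotin-positive phagocytes, where 20.4% of genes were called higher and 18.5% lower. Among the coregulators, Nrip1 was at 58.2, 60.7, 50.2 and 41.0 CPM in the negative and 163, 221, 239 and 144 in the positive samples (1.55, SE 0.18, adjusted p = 0.000257), with no overlap. Ncoa3 was at 24.0 to 44.9 against 29.6 to 40.6 and was not called (-0.37, adjusted p = 0.154). Nr3c1 was at 62.9, 56.5, 53.5 and 61.2 against 97.0, 99.0, 112 and 89.0 (0.44, SE 0.13, adjusted p = 0.0174). That call was lost without negative replicate 2 or 3 or positive replicate 3, with adjusted p-values of 0.0522, 0.0568 and 0.0671.

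Rxra stood at 7.32, 17.2, 11.1 and 10.2 CPM in the negative and 44.9, 65.1, 49.6 and 39.6 in the positive lung phagocytes (1.81, SE 0.23, adjusted p = 0.000326). Each of its partners among the members was higher too. Pparg was at 7.32, 7.13, 3.48 and 3.31 against 87.4, 92.8, 124 and 50.2 (3.78, SE 0.34, adjusted p = 0.000144, 13.7-fold). Nr1h3 was at 6.99, 17.4, 6.56 and 5.61 against 32.7, 41.2, 49.9 and 31.1 (1.77, SE 0.32, adjusted p = 0.00214). Vdr was at 5.66, 10.0, 3.89 and 5.86 against 42.7, 66.4, 19.4 and 13.6 (2.21, SE 0.50, adjusted p = 0.0077). For all 4 receptors every positive sample lay above every negative one.

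Nr4a1 went the other way in lung phagocytes, from 328, 730, 818 and 503 CPM in the negative to 355, 362, 216 and 176 in the positive samples (-1.41, SE 0.31, adjusted p = 0.00598). Negative replicate 1 lay below positive replicates 1 and 2, so the sorts overlap. Esrra was at 13.5 to 24.5 against 27.2 to 43.6, without overlap, and was not called (0.45, adjusted p = 0.1). The clusters behind the sums differed: in the positive sort 72.7% of the phagocytes were in the cluster led by Plet1, while in the negative sort 71.4% were monocytes led by Saa3 and 14.9% monocytes led by Ace. Summed levels of 15 neutrophil markers in these phagocytes were 16150 to 33394 CPM in the negative and 9677 to 24252 in the positive samples, and their part in the results was not tested.

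With the monocyte clusters left out, 3 of the 9 members were called in the lung, where 12.5% of genes were. Pparg differed by 2.92 (SE 0.36, adjusted p = 0.00265), Nrip1 by 1.16 (adjusted p = 0.0245) and Rxra by 1.26 (adjusted p = 0.0292). Nr1h3 at 0.35, Vdr at 0.06, Nr3c1 at 0.22 and Nr4a1 at -0.63 were no longer called, and Ncoa3 (-0.30) and Esrra (0.20) were not called either. The cells left still differed in kind, since alveolar macrophages were 29 of 271 in the negative (10.7%) and 3866 of 4799 in the positive sort (80.6%), so that make-up and level per cell cannot be told apart.

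The other genes of these pathways were read from lists of known targets and relatives. Of 13 tested PPARG lipid targets, 11 rose in biotin-positive lung phagocytes and none fell, with a median log2 difference of 2.51 against 0.03 over all genes. They included Fabp1 (5.94), a fatty acid binding protein, Pdk4 (5.65), which spares glucose for fat oxidation, Lpl (4.75), which frees fatty acids from lipoproteins, and the lipid droplet protein Cidec (4.66). Fabp1, Lpl and Cidec were also among the markers used to name alveolar macrophages. That class made up 76.1% of the positive and 1.38% of the negative lung phagocytes, so make-up and level per cell cannot be told apart in this list. Of 13 LXR targets, 5 rose and 2 fell, with a median of 1.08, among them the cholesterol transporters Abcg1 (3.79) and Abca1 (1.58), the efferocytosis receptor Mertk (3.43) and the phospholipid transfer protein Pltp (2.18). Of 4 VDR targets tested, Spp1 (2.16) and Slc37a2 (0.97) rose and Cd14 (-2.02) fell. Mertk and Spp1 were also among the markers used to name macrophages.

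Other lists moved both ways in the lung phagocytes, in counts that are to be read against the 20.4% of all genes called higher and the 18.5% called lower. The coregulators' count of higher genes was near that share: of 22 others, 4 rose, Ncoa4 (2.78), Ppargc1b (2.56) and Lcor (1.37) among them, and Ncoa7 fell (-0.87). Of 14 other nuclear receptors, 3 rose and 3 fell, with Rora at 2.27 and Nr4a2 at -1.84. Of 15 glucocorticoid receptor targets, 2 rose (Sgk1, 2.65; Mt2, 2.22) and 4 fell, Il1r2 (-2.33) and Ddit4 (-1.24) among them. Of 20 immediate early genes, 6 fell, Nr4a2 and Junb (-0.86) among them, and Egr2 rose (2.76). Of 12 oxidative targets of ESRRA, 3 fell and none rose.

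**Figure D3:**
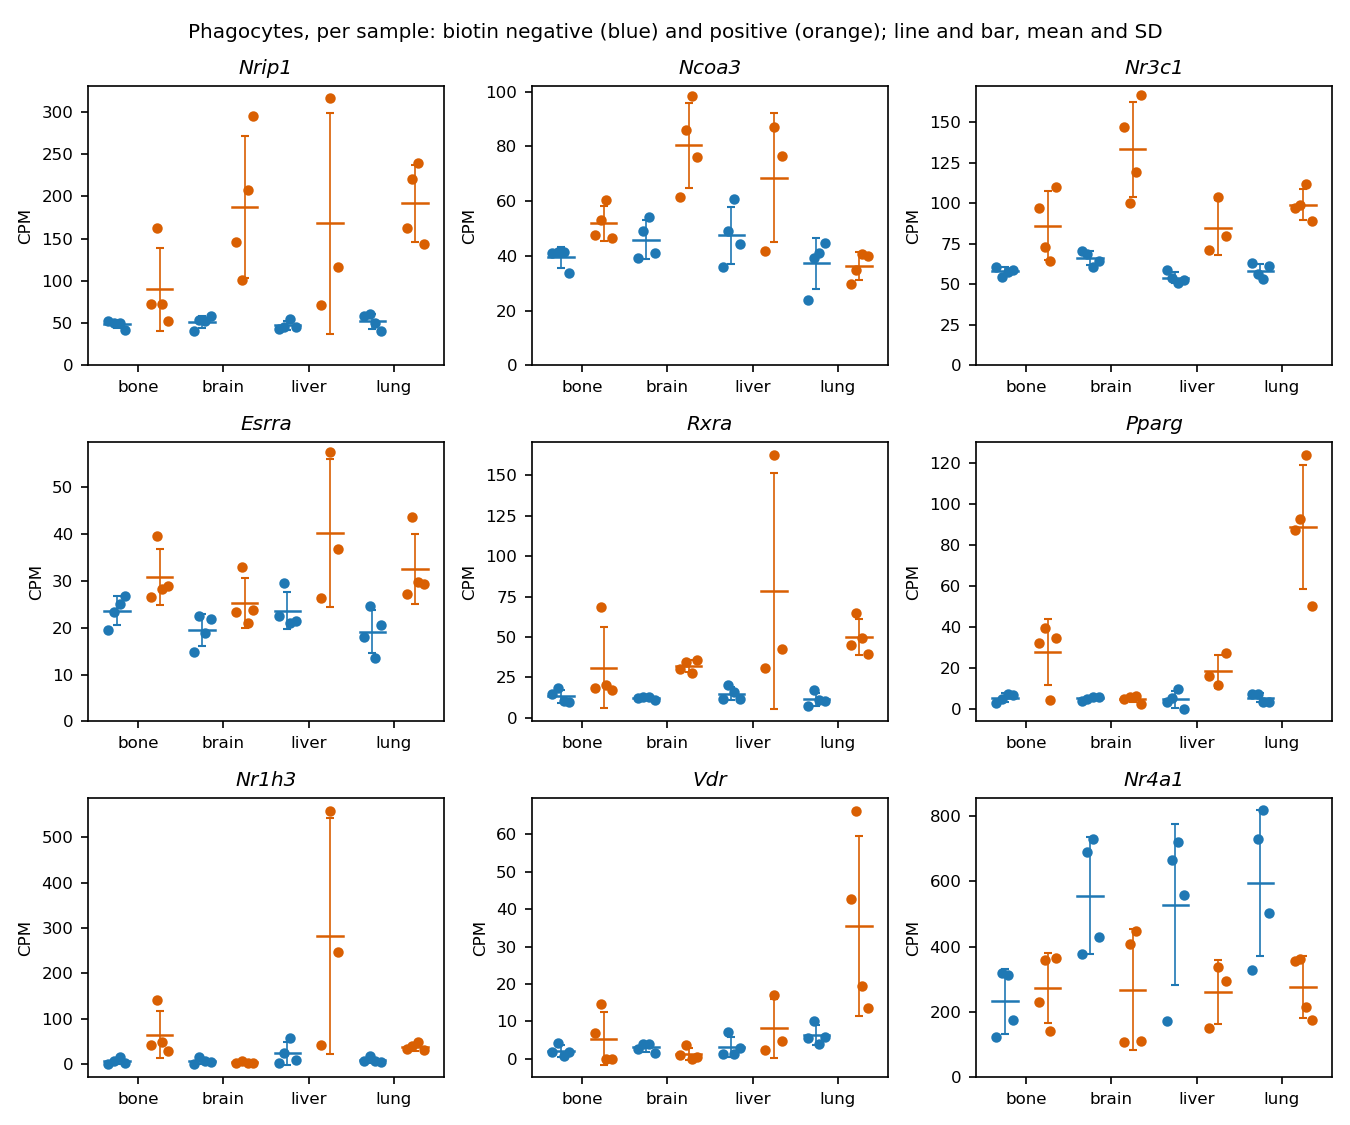
CPM of each member in phagocytes of each intracardiac sample, blue for biotin negative and orange for biotin positive in bone, brain, liver and lung, with the mean (line) and SD (bar). In the lung, Pparg is at 3.31 to 7.32 CPM in the negative and 50.2 to 124 in the positive samples, and Nr4a1 has a lower mean in the positive than in the negative samples of brain, liver and lung.

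In brain phagocytes 3 of the 7 members tested rose in the biotin-positive sort, where 17.5% of genes were called higher. Nrip1 was at 41.2, 53.5, 52.0 and 58.6 CPM in the negative and 146, 101, 208 and 296 in the positive samples (1.57, SE 0.29, adjusted p = 0.00312). Nr3c1 was at 70.5, 68.8, 60.5 and 64.5 against 147, 100, 119 and 166 (0.72, SE 0.16, adjusted p = 0.0059). Rxra was at 12.1, 13, 12.6 and 11.1 against 30.2, 34.5, 27.4 and 35.5 (1.13, SE 0.18, adjusted p = 0.00141). In each of the 3, all positive samples lay above all negative ones. Pparg stayed at 2.34 to 6.45 in both sorts, and Nr1h3 and Vdr were too low to be tested.

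With the replicate number as a block, which pairs the brain samples, Ncoa3 and Nr4a1 were called as well, where 3806 of 9384 genes were called. Ncoa3 was at 39.1, 49.0, 54.3 and 41.1 CPM against 61.4, 85.8, 98.3 and 76.2 (0.53, adjusted p = 0.0595 without and 0.0153 with the block). Nr4a1 was at 379, 688, 730 and 428 against 108, 408, 448 and 110 (-1.30, adjusted p = 0.0951 without, and -1.57, SE 0.29, adjusted p = 0.00499 with the block), lower in the positive sample of each of the 4 pairs. Of the positive phagocytes 57.6% were in the cluster led by Ccl12 and 30.7% were microglia, while 39.9% of the negative ones were monocytes led by Saa3 and 23.9% monocytes led by Vcan. Summed neutrophil markers were 21059 to 67732 CPM in the negative and 5657 to 26397 in the positive brain phagocytes. Without the monocyte clusters no member was called by edgeR (Nrip1 0.89, adjusted p = 0.233; Nr3c1 0.17; Rxra 0.18), where 0.221% of genes were.

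The ESRRA oxidative targets formed the list with the most lower genes in the brain phagocytes: 8 of 12 fell and none rose, where 18.1% of all genes were called lower, with a median of -0.75 against 0.03 over all genes, including Cox5a (-1.19), Cycs (-1.05) and Cs (-0.99), genes of respiration. Esrra itself was at 14.8 to 22.5 CPM in the negative and 20.9 to 33.0 in the positive samples and was not called. The counts of rising genes are to be read against the 17.5% of all genes called higher. Of 15 glucocorticoid receptor targets, 4 rose and 1 fell, with Cd163, a scavenger receptor, at 4.01, Sgk1 at 1.74, Tsc22d3 at 0.91 and Il1r2 at -2.24. Of 11 LXR targets, 5 rose (Mertk 2.85, Abca1 2.78 and Mylip 2.24 among them) and Smpdl3a fell (-2.65). Cd163 and Mertk were also among the markers used to name macrophages, which were 65.1% of the positive and 20.6% of the negative brain phagocytes.

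In bone phagocytes Pparg was the 1 member of 8 tested that was called, where 2.97% of genes were called higher. It stood at 2.87, 4.61, 7.31 and 6.93 CPM in the negative and 32.2, 39.6, 4.02 and 34.8 in the positive samples (2.5, SE 0.43, adjusted p = 0.0105, 5.64-fold). Positive replicate 3 lay among the negative samples; it and replicate 4 had 66 and 34 phagocytes against 449 and 452 in replicates 1 and 2. Nr1h3 was at 1.27, 6.25, 15.8 and 1.73 against 41.4, 142, 48.3 and 29.0, with no overlap, yet it was not called without the block (3.54, SE 0.81, adjusted p = 0.0647). With the block, which pairs the bone samples, it was called (3.67, SE 0.55, adjusted p = 0.0138), as it was with DESeq2 (adjusted p = 9.18e-05). Of 9065 genes, 456 were called with the block and 371 with DESeq2.

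Nrip1 in bone phagocytes was at 42.4 to 52.7 CPM in the negative and 52.2 to 163 in the positive samples (0.83, adjusted p = 0.107), and Rxra at 9.53 to 18.1 against 17.4 to 68.2 (1.23, adjusted p = 0.131). Of the positive phagocytes 51.2% were in the macrophage cluster led by Vcam1, against 1.55% of the negative ones, 42.4% of which were monocytes led by Vcan. The summed level of 15 erythroid markers was 52.8 to 72.5 CPM in the negative and 540 to 5359 in the positive phagocytes of bone. It was also higher in the positive phagocytes of brain (56.0 to 102 against 132 to 386), lung (60.05 to 84.5 against 120 to 184) and, with overlap, liver (51.3 to 210 against 158 to 5181), and its part in the members' values was not tested. Vdr, at 0.61 to 4.28 against 0 to 14.7 CPM, did not pass the filter on low counts. Leaving the monocytes out left 3 negative and 4 positive samples and no gene called by edgeR among 1579 tested, with Nr1h3 at 1.16 (adjusted p = 0.999) and Pparg below the filter. Of 13 LXR targets Mylip (1.35) and Abcg1 (1.29) rose, and of 10 PPARG targets Fabp5 (2.5).

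In liver phagocytes, with 4 negative and 3 positive samples, 0 of 9 members were called by edgeR, where 0.254% of genes were. An unadjusted p under 0.05 was found for 6 members and for 2331 of all 10237 genes tested. Nr1h3 was at 3.70, 24.4, 58.8 and 8.56 CPM in the negative and 41.6, 559 and 247 in the positive samples (3.25, SE 1.03, adjusted p = 0.135), overlapping through positive replicate 1. With the block, which pairs the liver samples, it was called (3.14, SE 0.50, adjusted p = 0.0417), and the count over all genes rose from 26 to 476. DESeq2 called 710 genes, 2 members among them, Nrip1 (1.57, edgeR's adjusted p = 0.0991, DESeq2's 0.0118) and Rxra (2.13, 0.0932 and 0.00349). Nrip1 was at 43.5, 45.2, 54.8 and 45.6 against 71.0, 317 and 116, and Rxra at 11.7, 20.4, 16.2 and 11.4 against 30.5, 163 and 42.7, neither with overlap.

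The cluster led by Cd5l, in which Nr1h3, Rxra and Nrip1 had their high levels, made up 61.7% of the positive and 1.89% of the negative liver phagocytes. Without positive replicate 1, 1 of only 3 positive samples, edgeR called both Nrip1 (adjusted p = 0.0144) and Rxra (0.0213). The count over all genes was unstable here, from 0 to 1165 called on leaving out 1 sample. Nr4a1 in the liver was at 173, 664, 720 and 558 CPM in the negative against 152, 337 and 295 in the positive phagocytes (-1.26, adjusted p = 0.182), and Pparg at 0 to 9.71 against 11.7 to 27.1 (1.52, adjusted p = 0.180). Without the monocyte clusters no member was called in the liver by edgeR, where 0.0% of genes were, with Nr1h3 at 2.02, Rxra at 1.65, Nrip1 at 1.10 and Esrra at 0.77 having an unadjusted p under 0.05. Positive replicate 4 held under 10 phagocytes and was left out.

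**Figure D4:**
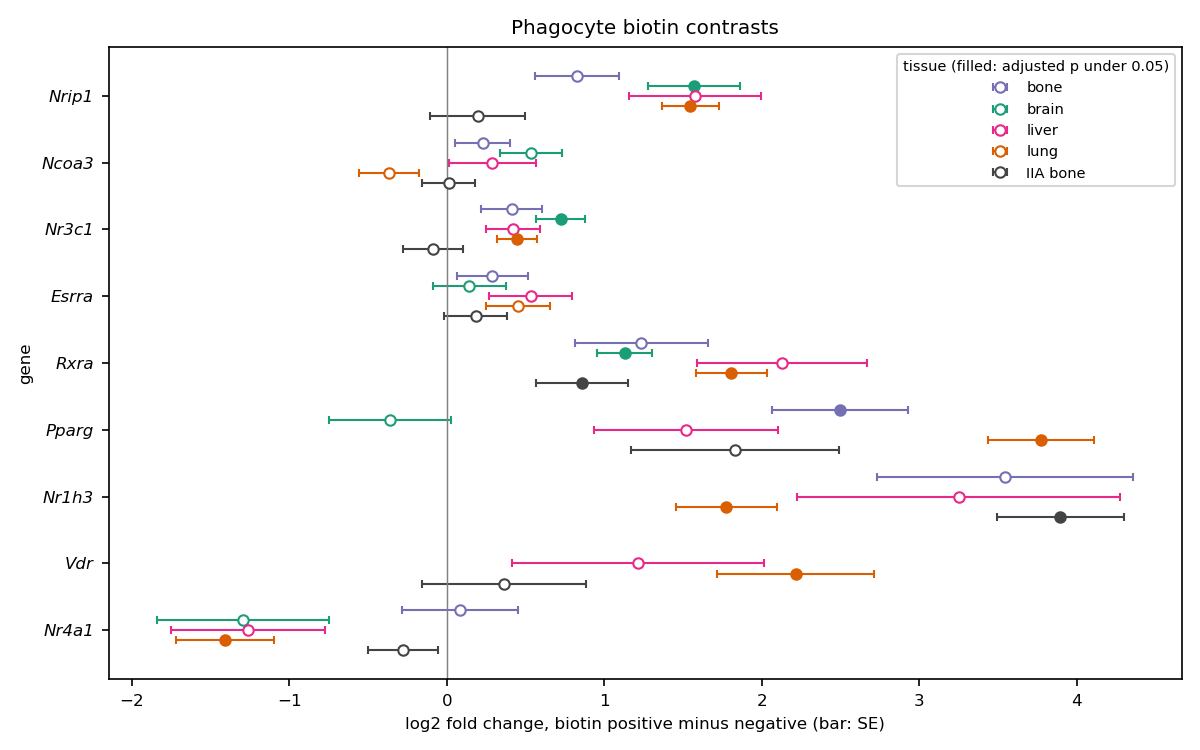
Log2 fold change of biotin-positive over biotin-negative phagocytes for each member in each tissue, with bars for the standard error and filled points where the adjusted p was under 0.05. Pparg in the lung (3.78) and in bone (2.5) and Nrip1 in the lung (1.55) and brain (1.57) are filled, and Nr4a1 lies below 0 in brain, liver and lung.

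The lymphocytes and neutrophils of the intracardiac samples gave no called member between the sorts, and edgeR called 0.0% of genes in each of these 12 comparisons. In neutrophils DESeq2 called none either, and 250, 11, 90 and 51 genes were under an unadjusted p of 0.05 in bone, brain, liver and lung. Nr4a1 in bone neutrophils, for instance, was at 129, 109, 32 and 19.8 CPM in the negative and 86.8, 107, 57.5 and 68.0 in the positive samples. In B cells 177, 165, 88 and 179 genes and in T cells 81, 108, 216 and 200 genes were at an unadjusted p under 0.05, and DESeq2 called none but 10 in liver T cells, none of them a member. In bone T cells, Nr4a1 was at 64.3, 84.7, 97.7 and 27.9 in the negative and 148, 229, 216 and 58.4 in the positive samples, higher in each of the 4 pairs. It was called with the block alone (1.2, SE 0.24, adjusted p = 0.0485), where 5 of 2708 genes were called.

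A second question was whether the members differed between tissues within the negative sort, each tissue being set against the mean of the other 3. In neutrophils of bone 2 of the 7 members tested were lower, where 15.3% of genes were called lower, and in those of the lung 2 were higher, where 13.4% were called higher. Nr4a1 stood at 129, 109, 32 and 19.8 CPM in the bone samples and at 425, 414, 243 and 219 in the lung samples, with brain (228, 228, 178 and 109) and liver (322, 369, 159 and 238) between. The difference was -1.92 for bone (SE 0.42, adjusted p = 0.0064) and 1.10 for lung (SE 0.35, adjusted p = 0.0279), with bone below every liver and lung sample. The lung call was lost without lung replicate 1 (adjusted p = 0.102) or 2 (0.0982), while the bone call was kept without any 1 sample.

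Nr3c1 was at 75.3, 53.2, 53.3 and 65.0 CPM in neutrophils of bone and 90.4, 94.8, 100 and 109 in those of lung, without overlap, and differed by -0.56 for bone (SE 0.14, adjusted p = 0.0093) and 0.42 for lung (SE 0.13, adjusted p = 0.0259), the latter lost without lung replicate 2 (0.0593), 3 (0.0537) or 4 (0.0895). No member was called or had an unadjusted p under 0.05 in brain or liver, where edgeR called 0.0% and 0.0111% of genes, DESeq2 found 0 and 29 genes, and 896 and 547 were under an unadjusted p of 0.05. Bone differed in make-up: 26.3%, 23.9% and 12.9% of its negative neutrophils were in clusters of immature neutrophils, against 0.387%, 1.04% and 0.0968% in the lung, and 13 markers of immature neutrophils summed to 88214 to 89396 CPM in bone and 14829 to 18165 in lung. Restricted to mature neutrophil clusters, a choice made after seeing the data, Nr4a1 was lower in bone (-1.58, adjusted p = 0.0226), where 3.13% of genes were called, while its lung difference (0.71, adjusted p = 0.435) and both differences of Nr3c1 (-0.06 and -0.01) were not called, with 0.888% of genes called in the lung. The mature clusters differed between the tissues too: that led by Igfbp6 held 11.2% of the negative bone and 1.36% of the negative lung neutrophils, and those led by Ccrl2 and Wfdc17 held 1.26% and 2.89% in bone and 40.6% and 48.5% in the lung. Median Nr4a1 levels in these 3 clusters were 74.0, 600.2 and 236 CPM.

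The immediate early list moved with Nr4a1 in these neutrophils. Of 20 immediate early genes, 17 were lower in bone, with a median of -2.15 against 0.01 over all genes, Atf3 (-3.36), the heat shock gene Hspa1a (-3.09), the phosphatase gene Dusp1 (-3.00) and Egr1 (-2.89) among them, and 15 were higher in the lung, with Nr4a3 (2.64), Fosb (2.49), Atf3 (2.43) and Nr4a2 (2.05). Glucocorticoid receptor targets, which share Dusp1 with that list, were lower in bone for 10 of 15 and higher in lung for 6 of 15. Of all genes tested, 15.3% were called lower in bone and 13.4% higher in lung. The lung and bone contrasts share samples, so the counts are not independent.

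Without a replicate block, no member was called by edgeR between tissues in negative phagocytes, where 0.0614%, 0.307%, 0.0% and 0.0920% of genes were called for bone, brain, liver and lung. In each tissue 1 member was at an unadjusted p under 0.05, as were 924, 535, 540 and 1310 of 9779 genes in the same order. For Nr4a1 in bone (-1.33) the adjusted p was 0.256 with edgeR and 0.00847 with DESeq2. In T cells, whose samples the replicate number pairs, the block changed 3 calls. Nrip1 was at 98.9, 86.5, 126 and 78.1 CPM in the bone samples and at 202, 166, 239 and 164 in the lung samples, with brain at 117, 185, 116 and 134 and liver at 142, 116, 204 and 145. It was lower in bone (-0.67, SE 0.14, adjusted p = 0.0112) and higher in lung (0.60, SE 0.12, adjusted p = 0.0045) with the block, against edgeR's adjusted p-values of 0.13 and 0.101 without it and DESeq2's of 0.0472 and 0.0318. Nr4a1, at 277, 266, 280 and 86.1 in lung T cells, was higher there with the block (1.08, SE 0.22, adjusted p = 0.0256; 0.325 without). With the block, 108 and 159 of 6554 genes were called in bone and lung T cells, and without it 0.0458% and 0.061% of genes were. No member was called in B cells with edgeR, where at most 0.417% of genes were. At an unadjusted p under 0.05 were 2 members, both in the lung, where 427 of 6961 genes were.

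The bone samples after IIA injection were compared in the same way, 6 biotin-positive against 6 biotin-negative. Over all cells, Nr1h3 rose and Nr3c1, Ncoa3 and Esrra fell, where 26.9% of genes were called higher and 23.1% lower. Nr1h3 ran from 0.71 through a median of 1.21 to 2.13 CPM in the negative and from 4.30 through 13.9 to 23.8 in the positive samples (2.99, SE 0.46, adjusted p = 0.000261). Nr3c1 ran from 89.3 through 98.4 to 103 against 57.2 through 71.6 to 80.8 (-0.72, SE 0.09, adjusted p = 4.2e-05), again without overlap. Ncoa3 ran from 51.1 through 62.2 to 72.6 against 31.2 through 42.1 to 61.6 (-0.70, SE 0.17, adjusted p = 0.0042), with overlap, and Esrra differed by -0.33 (SE 0.10, adjusted p = 0.0195), a call lost without negative replicate 2 (adjusted p = 0.0502).

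In IIA phagocytes 2 of 9 members rose, where 15.5% of genes were called higher. Nr1h3 ran from 2.71 through 3.53 to 7.90 CPM in the negative and from 40.2 through 72.0 to 234 in the positive samples (3.89, SE 0.40, adjusted p = 1.4e-05, 14.9-fold), so that the lowest positive sample lay well above the highest negative one. Rxra ran from 13.5 through 19.2 to 26.9 against 13.7 through 33.5 to 72.5 (0.86, SE 0.29, adjusted p = 0.036), with overlap. The call of Rxra was lost without any of 5 samples (negative replicates 1, 5 and 6, positive replicates 2 and 6; adjusted p up to 0.122). Pparg ran from 12.5 through 20.1 to 50.2 against 19.5 through 75.1 to 447 and missed the threshold with edgeR (1.83, SE 0.66, adjusted p = 0.0606). It passed with DESeq2 (0.00324) and with the injection number as a block (1.91, SE 0.53, adjusted p = 0.0432). Of 9559 genes, 2647 were called with DESeq2 and 2552 with the block. The labels do not say that a number is 1 animal in both sorts. Nrip1 (0.19), Ncoa3 (0.01), Nr3c1 (-0.09) and Esrra (0.18) were not called, with adjusted p-values of 0.535 and more, nor was Vdr (0.36, adjusted p = 0.651). Nr4a1 ran from 146 through 186 to 252 against 66.9 through 146 to 214 and was not called (-0.28, SE 0.22, adjusted p = 0.381).

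The make-up of the IIA phagocytes differed between the sorts: macrophages of all clusters were 90.8% of the positive and 20.5% of the negative ones, and monocytes 9.19% and 79.5%. Among them, macrophages led by Negr1, Cd5l and Vcam1 were 12.4% of the positive and 1.84% of the negative phagocytes, monocytes led by Fn1 6.24% and 60.2%, and monocytes led by Ace 2.95% and 19.4%. The cluster led by Negr1 (137 cells, 6 samples) held Pparg at a median of 552 CPM (492 to 834) and Nr1h3 at 324 (202 to 416). The monocytes led by Ace held Pparg at 143 (86.9 to 222), and those led by Fn1 at 2.42. Summed neutrophil markers were 17661 to 36357 CPM in the negative and 3509 to 29748 in the positive phagocytes.

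With the monocyte clusters left out, a choice made after seeing the data, Nr4a1 was lower in the positive than in the negative IIA macrophages (-1.99, SE 0.35, adjusted p = 0.0015), and Nr1h3 missed the threshold (2.31, SE 0.82, adjusted p = 0.0679). Nr4a1 was thus the 1 member called of 7 tested, where 19.4% of genes were called, and Rxra and Vdr did not pass the filter on low counts there, so the higher Rxra of the IIA phagocytes was not tested without the monocytes.

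The lists of LXR and PPARG targets held more genes that rose in the IIA phagocytes than genes that fell, where 15.5% of all genes were called higher. Of 12 LXR targets, 7 rose and 1 fell, with a median of 1.23 against -0.02 over all genes. Among those that rose were the efferocytosis receptor Mertk (6.52), the macrophage survival factor Cd5l (5.25), Abca1 (3.98) and Pltp (3.25). Mertk and Cd5l were also among the markers used to name macrophages. That class made up 90.8% of the positive and 20.5% of the negative phagocytes, so make-up and level per cell cannot be told apart. Of 9 PPARG targets 6 rose, with the fatty acid transporter Cd36 at 3.92, Hilpda at 3.34, Fabp4 at 3.11 and Fabp5 at 2.88.

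In IIA neutrophils Nr4a1 was the 1 member of 5 tested that was called, where 6.00% of genes were called higher. It ran from 13.5 through a median of 54.3 to 78.6 CPM in the negative and from 109 through 364 to 766 in the positive samples, without overlap (3.05, SE 0.53, adjusted p = 0.00978, 8.28-fold), and kept a difference of 2.79 to 3.22 on leaving out any sample. Of 18 immediate early genes 8 rose and none fell, with a median of 1.57 against 0.01 over all genes, Atf3 (3.71), Nr4a3 (3.48), Fosb (2.62) and Fos (1.90) among them. Nr3c1 in the same cells was at 80.0 to 95.7 against 72.2 to 91.6.

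Clusters led by Acod1 and by Tnfaip6, with genes of activated neutrophils such as Cxcl2, Il1b and Osm among their leading genes, made up 28.0% and 11.8% of the positive and 1.80% and 2.40% of the negative IIA neutrophils. Their median Nr4a1 levels were 1570 and 941 CPM, against 38.1 in the cluster led by Prr5l and 7.06 in that led by Cstdc4. With both left out, a choice made after seeing the data, the difference of Nr4a1 was 0.59 (SE 0.33, adjusted p = 0.311), where 9.46% of genes were called. With mature clusters only, also chosen after seeing the data, which keeps both clusters, it was called (2.17, SE 0.46, adjusted p = 0.0132), where 14.3% of genes were. IIA B cells, 6 negative and 2 positive samples, had no called member among 5 tested by edgeR, where 0.0% of genes were called, although 361 genes were under an unadjusted p of 0.05 and DESeq2 found 1. IIA T cells had too few positive samples to be fitted.

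**Figure D5:**
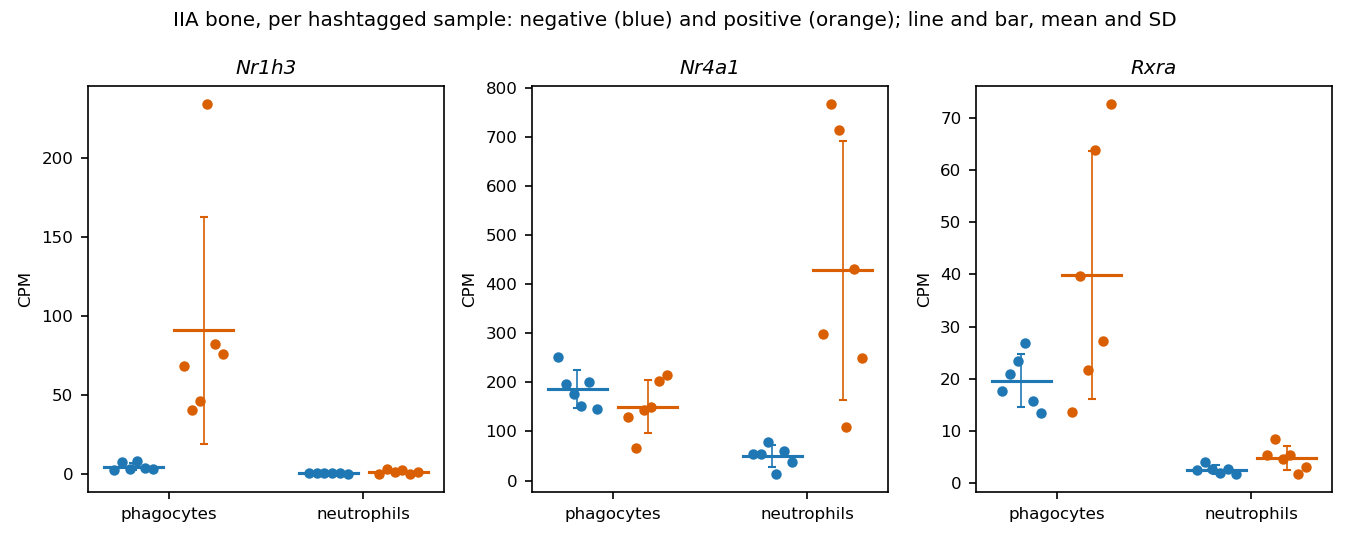
CPM of members in the 12 hashtagged IIA bone samples, blue for biotin negative and orange for biotin positive, in the cell classes named on the axis, with the mean (line) and SD (bar). Nr1h3 in phagocytes is at 2.71 to 7.90 CPM in the negative and 40.2 to 234 in the positive samples, and Nr4a1 in neutrophils at 13.5 to 78.6 against 109 to 766.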

How the data were processed

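Per the file headers, the authors made the deposited UMI counts with Cell Ranger, version 6.1.2 for the 32 intracardiac matrices (3′ libraries, CellPlex) and 7.1.0 for the pooled IIA matrix (5′ libraries, TotalSeqC); the submitters' processing notes name Seurat and the mm10 build. No column was left unmapped. IIA cells were assigned to their top hashtag where it had 10 counts or more and 3 times those of the next. Cells with at least 500 UMIs, 200 genes and at most 15% mitochondrial UMIs were kept. Of 57065 intracardiac barcodes, 341 of 56724 distinct ones occurred in more than 1 library, none within a replicate number.

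Cells were clustered with scanpy 1.11.5 (2000 variable genes, 30 components, 15 neighbours, Leiden resolution 1.0 as run by igraph 0.11.9). The members and the other listed nuclear receptors and coregulators were left out of the variable genes. A cluster was named where at least 3 of a class's markers, from 29 lists of 346 genes, were among its 100 leading genes. Doublets were kept, and an alternative leaves out the 5% of cells with the highest Scrublet score. Counts were summed per sample and class (at least 10 cells), normalized by TMM, filtered with filterByExpr and tested with edgeR 4.0.16 (R 4.3.3), with DESeq2 1.42.0 as an alternative; the scripts were tested on simulated data. Nothing in the labels says that samples of a group came from separate animals, so p-values measure the spread between these samples. Samples with the same replicate number deviated together in bone (correlations of 0.375 to 0.774), brain (0.290 to 0.664) and liver (0.314 to 0.668), and between tissues in T cells (0.128 to 0.432) and B cells (0.154 to 0.469), and were taken as paired there.

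The rule for named genes was all 9 members in each comparison and, of each list, up to 4 called genes with the largest change. Members that were not called are in part given by their counts alone, which departs from that rule. For likeness of patterns, the 3 genes with the highest Pearson correlation of log2(CPM + 1) over classes were taken. The members, lists and tests were chosen with earlier results of these data known. The restrictions to mature neutrophils in both experiments, and, in IIA samples, to neutrophils without the Acod1- and Tnfaip6-led clusters and to phagocytes without monocytes were chosen after seeing the data. Members without a promoter entry are named only. Some results on single macrophage clusters are not reported here.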

Additional observations from a re-analysis of the deposited data

Results flagged for a closer look

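In the biotin-positive IIA phagocytes, replicate 4 had Nr1h3 at 234 CPM while the other 5 samples were at 40.2 to 82.0, a gap that makes it a far sample in its group; it held 28 phagocytes. In the biotin-negative lung phagocytes, replicate 2 had Nr1h3 at 17.4 CPM, with the other 3 samples at 5.61 to 6.99. Of 52 groups of members and samples looked at in this way, 2 held a far sample, where chance gives about 1 in 20. The biotin contrast of Pparg over all cells differed between the lung and the mean of the other tissues by 3.29 on the log2 scale in the test of that difference, as given above with the samples on which it rests.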

How the results depend on the processing

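Over all cells of the intracardiac samples, 4 calls of members became 7 with DESeq2. In phagocytes, 11 calls became 17 with the replicate block and 3 without the monocyte clusters. T cells had 0 calls, and 1 with the replicate block. Between tissues, 4 calls became 7 with DESeq2, 12 with the replicate block and 1 with mature neutrophils only, and the lowest and highest counts on leaving out a sample were 2 and 5. The difference of the contrast between tissues, 1 call, became 0 without a filter on low counts and ranged from 0 to 1 on leaving out a sample. The sign turned for Nr3c1 in lung neutrophils against other tissues with mature clusters only (-0.0094), and the cause was not tested. Of the members' other values, 313 kept sign and call under the alternatives, 31 gained and 15 lost the call; on leaving out a sample 508 kept, 13 gained and 24 lost it. By the correlations, the replicate numbers do not pair all the lung samples (0.521, 0.195, -0.209 and 0.594 for replicates 1 to 4). Nor do they pair all the IIA samples (0.0958 for replicate 3), though the labels number these by injection. None of the 341 barcodes found in more than 1 intracardiac library lay within a replicate number, so whether the lung numbers are paired is not settled. With the replicate block, all 9 members were called in lung phagocytes (Ncoa3 -0.33, adjusted p = 0.0481, and Esrra 0.46, adjusted p = 0.0246), where 5108 of 10175 genes were called. Nr4a1 was called with it over all lung cells (-0.88, adjusted p = 0.028), where 2558 of 12331 genes were. Pparg was called with it in IIA phagocytes (1.91, adjusted p = 0.0432), where 2552 of 9559 genes were. Between tissues the numbers were taken as paired only where all 24 correlations were over 0.1. That rule left out phagocytes (22 of 24, lowest -0.0261, median 0.407) and neutrophils (21 of 24, lowest -0.381, median 0.391). Their medians were nonetheless above those of the B cells (0.292) and T cells (0.230) taken as paired. With the block, Nr4a1 was called in bone phagocytes (-1.35, adjusted p = 0.00333), where 121 of 9779 genes were. Vdr (1.36, 0.0297) and Nr4a1 (0.66, 0.0402) were called in lung phagocytes, where 219 of 9779 genes were. Ncoa3 (-0.43, 0.0237) and Rxra (-0.87, 0.0385) were called in bone neutrophils, where 3975 of 9034 genes were. Depth limits Pparg, Nr1h3 and Vdr, since many class sums held none of their UMIs.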

Other observations

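The genes whose levels over 16 intracardiac cell classes followed a member most closely, of 12424 genes, are given as a description, with Pearson's r of log2(CPM + 1); the classes share libraries and depth. For Nrip1 they were Eif5a2 (r = 0.95), Zscan26 (0.945) and Zfp277 (0.942), for Ncoa3 Camta2 (0.90), Parp14 (0.886) and Wdr44 (0.881), and for Nr3c1 Herpud2 (0.946), Zbtb37 (0.935) and Zmym2 (0.934). For Esrra they were Stam2 (0.93), Slc6a6 (0.929) and Fam168a (0.925), and for Rxra Aplp2 (0.948), Dhrs3 (0.942) and Tnfsf12 (0.928). Pparg was followed by Siglec1 (0.906), F7 (0.899) and Ear2 (0.888), the last 2 a clotting factor gene and an eosinophil-associated ribonuclease gene, and Nr1h3 by Myof (0.906), Pparg itself (0.876) and Dnase1l1 (0.872). Vdr was followed by the receptor tyrosine kinase gene Axl (0.904), Plekhb2 (0.862) and Gm8113 (0.856), and Nr4a1 by Msn (0.915), Map3k8 (0.91) and the NF-kappaB subunit gene Rel (0.906).

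In the 2 IIA samples with at least 10 osteoclasts, 53 cells together, Esrra was at 83.2 and 88.2 CPM. Its levels were 21.0 to 72.5 CPM in the summed neutrophils and phagocytes of the IIA samples, while single samples of B cells (0 to 95.7) and monocytes (26.0 to 86.9) reached as high as the osteoclasts.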
